A study of Mus musculus with 4 samples.

Results

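Regions enriched for methylated DNA at mouse zinc finger genes were examined in pancreatic islets. Peaks called separately in each of 4 libraries were joined where they overlapped by at least 1 bp on chromosomes 1 to 19, which gave 180857 merged regions. A merged region was kept where it touched the body or the upstream 2 kb of a protein-coding gene whose GENCODE symbol is Zfp followed by a number alone, and 1128 regions met this rule. They lay at 318 of the 358 such genes, and the remaining 40 genes had no region. All positions are on GRCm38 (mm10). The choice of members used gene names and peak positions, not the difference between genotypes.

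Islets came from mice 8 weeks old, labelled C57BL/6, while the methods describe the Cre line as a C57BL/6J and 129/SvJ mix. WT mice carried the floxed Raptor allele on both chromosomes (Raptor lox/lox) without Cre, so the control group shared the floxed allele. βRapKO mice carried the same floxed alleles and RipCre, a Cre recombinase under the rat insulin promoter, which deletes Raptor, the defining subunit of mTORC1, in beta cells. Each genotype had 2 libraries. Handpicked whole islets hold alpha, delta and other cells beside beta cells, so a difference within beta cells and a difference in the share of beta cells cannot be told apart. The labels do not state how many animals gave DNA to a library, so a p-value measures only the spread between these libraries.

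C2H2 zinc finger proteins form one of the largest families of transcription factors in mammals. Each finger folds around a zinc ion and reads a few bases of DNA, and long arrays of fingers are usually encoded by a single terminal exon. Many members with a KRAB domain recruit the corepressor TRIM28 to retroelements and imprinted loci, sit in clusters that grew by gene duplication, and differ from their neighbours mostly in the fingers. The Zfp symbols also include proteins with other finger types that bind RNA or act in ubiquitination.

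A sequence shared by many of these genes, but not all, is the linker between neighbouring fingers. It was searched on both strands as a motif of 14 bases. Codon by codon the motif reads threonine, glycine, glutamate or aspartate, lysine or asparagine, and the first bases of proline. Any base was allowed at the third place of a codon. In 99 of the genes the coding part of the last exon held no copy. This motif occurred in 11.4% of the 1128 Zfp regions, against 0.344% of all 180857 regions, and 94 of the Zfp regions (8.33%) held at least 3 copies. The genes were chosen by a zinc finger name, so this contrast describes the choice of genes and is no result about methylation. Stretches of 300 bases from the coding part of the last exon are shown for 3 genes, with the linker motif in capitals. Each is the window with the most linkers and, among equals, the most CpG sites. For Zfp568 and Zfp39 the search was limited to the called region. Zfp568 and Zfp39 lie in regions called here, and the last exon of Zfp708, chosen after its values were seen, had no peak in any library. The reference sequence is RefSeq's for GRCm38.
Zfp568, chr7:30022919-30023218, plus strand, in the last exon: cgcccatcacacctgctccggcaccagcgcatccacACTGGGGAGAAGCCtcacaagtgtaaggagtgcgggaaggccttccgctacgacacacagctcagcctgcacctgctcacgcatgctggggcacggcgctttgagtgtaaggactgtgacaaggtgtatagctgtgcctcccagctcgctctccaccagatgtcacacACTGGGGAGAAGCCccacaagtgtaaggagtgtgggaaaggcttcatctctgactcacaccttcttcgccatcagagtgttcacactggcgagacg
Zfp39, chr11:58890287-58890586, minus strand, in the last exon: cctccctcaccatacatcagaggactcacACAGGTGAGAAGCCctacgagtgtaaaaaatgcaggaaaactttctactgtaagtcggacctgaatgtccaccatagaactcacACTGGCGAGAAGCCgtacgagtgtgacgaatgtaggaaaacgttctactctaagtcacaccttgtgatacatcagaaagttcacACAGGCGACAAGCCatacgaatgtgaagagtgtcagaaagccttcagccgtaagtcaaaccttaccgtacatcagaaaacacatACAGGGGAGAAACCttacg
Zfp708, chr13:67070763-67071062, minus strand, in the last exon: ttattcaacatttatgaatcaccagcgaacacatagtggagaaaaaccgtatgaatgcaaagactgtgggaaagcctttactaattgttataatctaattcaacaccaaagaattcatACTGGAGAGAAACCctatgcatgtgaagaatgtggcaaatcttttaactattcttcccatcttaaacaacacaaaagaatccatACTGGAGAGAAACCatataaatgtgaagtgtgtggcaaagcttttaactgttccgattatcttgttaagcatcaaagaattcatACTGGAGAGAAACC
The stretches of Zfp568 and Zfp39 held 13 and 12 CpG sites, and that of Zfp708 held 3. CpG number helped to pick the windows, so these counts only describe the stretches. Over the whole coding last exon the density was 2.55 sites per 100 bp in Zfp39 and 1.03 in Zfp708. Over the 169 genes with at least 5 linkers in the last exon, 833 of 1202 neighbouring pairs of linkers (69.3%) lay exactly 84 bases apart, the length of 1 finger of 28 codons. A further stretch comes from intron 5 of Zfp423, at the region with the smallest p of the family, and is centred on the mean summit of its peaks. Here CpG sites are in capitals.
Zfp423, chr8:87756504-87756803, minus strand, in intron 5: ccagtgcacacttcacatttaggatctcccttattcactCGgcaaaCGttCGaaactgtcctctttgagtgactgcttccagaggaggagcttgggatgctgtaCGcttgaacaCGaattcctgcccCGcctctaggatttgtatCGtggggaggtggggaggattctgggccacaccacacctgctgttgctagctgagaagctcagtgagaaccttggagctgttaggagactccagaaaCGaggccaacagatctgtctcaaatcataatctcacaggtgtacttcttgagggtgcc

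In MeDIP-seq an antibody against methylated cytosine enriches fragments, so a peak needs both methylation and enough CpG sites, and no peak says neither that a site was unmethylated nor by how much. The level of a region is given as CPM, the tags of its peaks per 1000000 tags of the library after duplicate removal. Libraries held between 25585533 and 31330751 such tags and between 113933 and 146612 autosomal peaks, the most in WT replicate 2. Rptor, the targeted gene, had 36 regions, and its region with the most tags gave 9.69 and 9.86 CPM in WT and 7.70 and 9.43 CPM in βRapKO, a value that does not read the deletion. Where every library had a peak, the log2 CPM correlated at 0.934 between the WT libraries, at 0.931 between the βRapKO libraries, and across genotypes between 0.915 and 0.939.

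The regions were unevenly spread over the family. The median gene with a region had 2, 109 genes had 1, and 20 genes with at least 10 regions held 413 of the 1128. Chromosome 7 carried 89 of the genes and 217 of the regions, and chromosome 18 carried 11 genes and 161 regions. The number of regions followed gene length, with a Pearson r of 0.655 against log10 length over the 358 genes, which share the same libraries. Zfp407 had 59 regions, Zfp423 had 38 and Zfp536 had 36, in genes of 462, 298 and 302 kb. Every library had a peak at 527 regions (46.7%), against 40.1% of all regions, and in 1 library alone at 273 (24.2%). These 527 lay at 254 genes, and only they were tested, because a library lacking a peak gives no tag number for that region.

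The regions were somewhat wider and denser than the rest of the genome's. Their median width was 1171 bp, against 1142 bp for all regions, and their median CpG density was 1.67 sites per 100 bp, against 1.58. Repeats were not the main content: 109 of the 1128 regions (9.66%) had at least 50% of their sampled 50-base words elsewhere in the genome, against 10.5% of all regions. Among regions at other protein-coding genes the share was lower, at 4.60%. Of the 1128, 46 also touched another protein-coding gene, and 13 touched more than 1 Zfp gene. At the 2 kb limit, the region just inside lay 1995 bp upstream of Zfp652 with 31 and 30 tags in WT and no peak in βRapKO, and the one just outside lay 2058 bp upstream of Zfp316 with 68 and 56 tags in WT and 74 tags in βRapKO replicate 2.

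Counted in bases, merged regions at the family covered more of internal exons and the coding last exon than of upstream sequence, first exons or introns. Of the 1128 regions, 202 (17.9%) touched the last exon of a Zfp gene, against 8.69% of the regions at other protein-coding genes and their own last exons. The first exon was touched by 11 regions (0.975%), the upstream 2 kb by 79 (7.0%), and introns alone by 568 (50.4%). At other protein-coding genes these shares were 1.41%, 5.10% and 54.5%. Counted in bases, merged regions covered 41.6% of the coding part of the last exon of Zfp genes and 35.0% of that of other genes. They covered 39.0% and 30.2% of internal exons, 4.68% and 8.69% of first exons, and 11.8% and 11.6% of introns. The rest of the last exon after the stop codon was covered to 15.3% in Zfp genes and 16.7% in other genes. Counted in regions instead, both sections were touched more often in Zfp genes, the coding one by 14.9% against 6.58% of regions and the rest by 14.98% against 7.81%. Internal exons went the other way, touched by 17.6% of Zfp regions against 27.9% of regions at other genes. A region lay on internal exons in 34.1% of Zfp genes and 64.8% of other genes.

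The pattern was the same in each library. Coverage of the coding part of the last exon was 36.1% and 36.7% in WT and 35.7% and 35.6% in βRapKO. The genotypes did not overlap, but they differed by less than 1.5 percentage points, and the two-sided exact permutation test gave p = 0.333, the smallest that 2 libraries against 2 allow. Upstream 2 kb was covered to 4.75% and 4.66% in WT and 5.34% and 5.12% in βRapKO, also without overlap and with the same exact p = 0.333. First exons, internal exons and introns overlapped between genotypes.

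**Figure D1:**
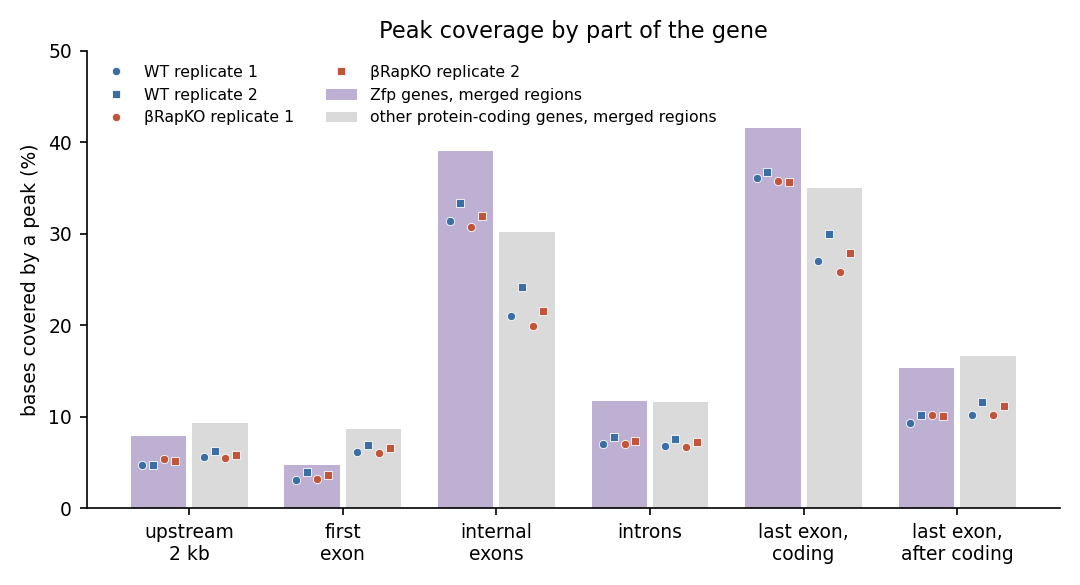
Share of bases covered by a peak in 6 parts of the gene (% of bases), for 358 Zfp genes (purple) and 20364 other protein-coding genes (grey). Bars show merged regions of all libraries and points the 4 single libraries, with WT in blue and βRapKO in red. Zfp genes stood higher in internal exons (39.0%) and the coding last exon (41.6%) and lower in the first exon (4.68%), and the 4 libraries lay close together in each.

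Finger arrays fell into those with a region and those without. Of the 169 genes with at least 5 linkers in the last exon, 77 had a region on the coding part of that exon and 92 had none. In 56 of the 77 a peak was called in all 4 libraries, and in 39 at least 90% of the coding bases were covered. The arrays differed in CpG density from 0.169 to 10.2 sites per 100 bp, with a median of 1.26. Of the 70 arrays below 1 site per 100 bp, 3 had a region, as did 33 of the 56 between 1 and 2, 19 of the 20 between 2 and 3, and 22 of the 23 at 3 or more. Across the 169 arrays the covered share followed CpG density with a Pearson r of 0.656 and a Spearman rho of 0.806, and these points share libraries, enrichment and sequence by descent.

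In other genes the share with a region also was lowest at low CpG density and levelled off above. Coding last exons of other protein-coding genes, of the same span of lengths (320 to 3292 bp), had a region in 2.91% of 1685 genes below 1 site per 100 bp, 26.8% of 1235 between 1 and 2, 67.9% of 1045 between 2 and 3, and 65.0% of 2074 at 3 or more. The matching shares of the finger arrays were 4.29%, 58.9%, 95% and 95.7%. Of Zfp genes with fewer than 5 linkers, 1 of 21, 7 of 35, 14 of 23 and 52 of 61 had a region. The arrays were also longer, with a median of 1.52 kb against 0.900 kb for the other genes, and the part of length in these shares was not tested.

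Counted in bases, coverage fell with the number of linkers, and CpG density fell over the same groups. Coding last exons without a linker were covered to 49.7% over 99 genes with 3.34 CpG sites per 100 bp, those with 1 to 4 linkers to 46.1%, those with 5 to 9 to 42.0%, and the 55 with 10 or more to 28.6% with 1.22 sites per 100 bp. The middle groups had 2.77 and 1.79 sites per 100 bp. The share of genes with a region there was 48.5%, 46.3%, 51.8% and 32.7% in the same order, without a steady fall. Linker number apart from CpG density was not tested. In the last group coverage was 24.5% and 25.1% in WT and 21.2% and 21.3% in βRapKO. These values did not overlap, with the smallest exact permutation p the design allows (0.333). In the group with 1 to 4 linkers βRapKO was the higher without overlap, at 43.04% and 43.4% against 40.9% and 42.6% in WT, with the same exact p = 0.333. In the group without a linker the genotypes overlapped, at 44.8% and 42.4% in WT and 40.4% and 44.2% in βRapKO.

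**Figure D2:**
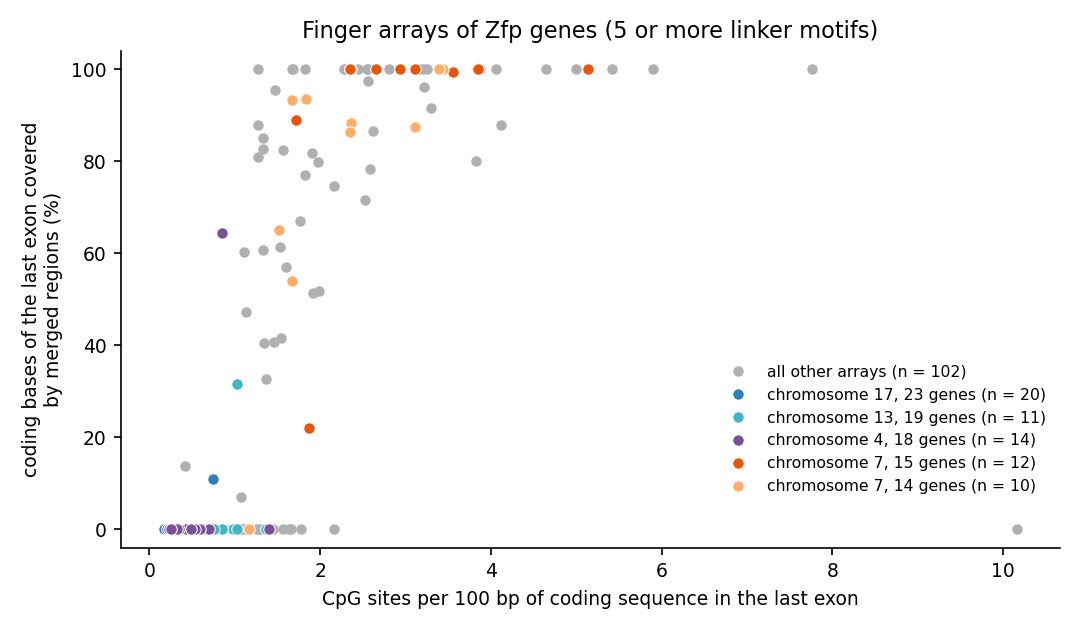
Each point is the coding part of the last exon of 1 of 169 Zfp genes with 5 or more linkers, with CpG sites per 100 bp on the x axis and the share of coding bases covered by merged regions (%) on the y axis. The clusters on chromosomes 17, 13 and 4 (blue, turquoise and purple, 45 arrays) sit below 1.5 sites per 100 bp and nearly all at 0%, the chromosome 7 clusters of 15 and 14 genes (orange, 22 arrays) sit mostly above 50%, and Zfp697 stands alone at 10.2 sites per 100 bp and 0%.

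The contrast ran between gene clusters. Of the 358 genes, 192 lay in 18 clusters of at least 5 genes with gaps of at most 1 Mb. The cluster with the most genes, on chromosome 17 from 21.0 to 23.6 Mb, held 23 genes, among them Zfp160, Zfp40, Zfp51 and Zfp760, and 1 of its 20 arrays had a region. The next, on chromosome 13 from 67.0 to 67.8 Mb, held 19 genes, among them Zfp708, which binds a class of retroelements, and 1 of its 11 arrays had a region. The third, on chromosome 4 from 145.5 to 147.8 Mb, held 18 genes, and 1 of 14 arrays had a region, at Zfp600. Their median array CpG densities were 0.531, 0.848 and 0.387 sites per 100 bp.

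On chromosome 7 some clusters stood at the other end. A cluster of 15 genes from 29.8 to 30.2 Mb, which holds Zfp568 (itself with 3 linkers), had a region on 12 of 12 arrays, and 10 of these were covered to at least 90%. Among them were Zfp420 with 15 linkers, Zfp74 with 13 and Zfp27 with 12, each covered to 100%. Another cluster of 14 genes from 24.1 to 25.2 Mb had a region on 9 of 10 arrays, all but Zfp235. The median array densities were 2.79 and 2.09 sites per 100 bp. Array bases of the first were covered to 88.5% and 78.1% in WT and 89.4% and 87.6% in βRapKO, and of the second to 62.7% and 66.5% in WT and 67.8% and 63.5% in βRapKO, so the genotypes overlapped in both. These clusters and their arrays were picked out after their values were seen, and chromosome 7 was not uniform. In its cluster of 10 genes from 41.6 to 43.6 Mb 2 of 10 arrays had a region, at a median of 1.01 CpG sites per 100 bp, and in that of 7 genes from 12.42 to 12.99 Mb 1 of 2 had one.

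Between these extremes stood a cluster of 11 genes on chromosome 2 from 174.6 to 178.1 Mb, where 7 of 8 arrays had a region at a median of 1.33 CpG sites per 100 bp. Its array bases were covered to 56.8% and 68.2% in WT and to 41.3% and 40.2% in βRapKO. The groups did not overlap, and this cluster was likewise singled out after the values were seen. Of its 19 regions 47.4% had at least 50% of their 50-base words elsewhere in the genome, so their tags may have been placed among near-identical copies. A few arrays went against the order by CpG density. Zfp697 had the densest array, 149 CpG sites in 1.47 kb, and no peak on it in any library, and Zfp600 had a region on 64.4% of its array, in all 4 libraries, at 0.846 sites per 100 bp.

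The regions of the chromosome 4 cluster lay mostly in repeats. It held 52 regions over 18 genes, and 39 of them (75%) had at least 50% of their 50-base words elsewhere in the genome. Its regions summed to 124 and 173 CPM in WT and 163 and 127 CPM in βRapKO, a spread within each genotype as wide as that between them. The widest of them, 7923 bp in intron 1 of Zfp981 (chr4:146502981-146510903), gave 39.4 CPM in WT replicate 2 and 34.9 CPM in βRapKO replicate 1 and had no peak in the other 2 libraries. The regions of the chromosome 17 and 13 clusters summed to 63.3 and 65.8 CPM and to 23.6 and 25.2 CPM in WT, and to 56.0 and 58.4 CPM and 22.5 and 25.9 CPM in βRapKO.

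The levels at the family differed little between genotypes. The 1128 regions summed to 2341 and 2609 CPM in WT and to 2124 and 2245 CPM in βRapKO. Both βRapKO libraries lay below both WT libraries, by 0.18 on the log2 scale, against 0.16 for all 180857 regions, and the exact permutation test gave p = 0.333 for either. A missing peak enters these sums as 0, and over the regions with a peak in every library the log2 differences were -0.10 for the 527 Zfp regions and -0.06 for all 72519. The peaks behind the sums over the 1128 regions spanned 1000 and 1082 kb in WT and 1000.4 and 1034 kb in βRapKO. That gave 2.34 and 2.41 CPM per kb in WT and 2.12 and 2.17 CPM per kb in βRapKO. All 180857 regions gave 2.17 and 2.17 CPM per kb in WT and 1.97 and 1.97 CPM per kb in βRapKO. The log2 difference per kb was -0.147 in the family and -0.139 over all regions.

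No Zfp region passed the test. With edgeR's quasi-likelihood test over all 72519 regions with a peak in all 4 libraries and Benjamini-Hochberg adjustment, 0 of 527 Zfp regions had an FDR under 0.05 with a fold-change above 1.5, as did 0% of all tested regions in either direction, and the smallest adjusted p was 0.380 in the family and 0.182 overall. DESeq2 also gave 0. Without adjustment, 30 Zfp regions were lower and 11 higher in βRapKO at p under 0.05 (5.69% and 2.09%), against 3.93% and 1.9% of all tested regions, and DESeq2 gave 6 and 3. In the simulation 92 of 200 regions with a 2-fold difference were found, so a difference of that size in a single region could be missed.

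By size alone, 12 regions were lower and 4 higher in βRapKO by more than 1.5-fold (2.28% and 0.759%), near the 1.8% and 1.3% of all tested regions. The split depended on the scaling, with 6 lower and 18 higher when the tags in peaks served as library size, and 9 and 9 with TMM normalization. The median log2 ratio was -0.08 in the family and -0.06 over all tested regions, and the middle 50% of the family's ratios ran from -0.22 to 0.08. Scaling to the tags in peaks moved the median of all regions to 0.10 and that of the family to 0.0855. A change of library size shifts every region of a library alike, so it cannot test the family against the genome. The mean was below WT in 328 regions (62.2%), against 60.8% of all, and 140 (26.6%) lay below WT without overlap of the libraries, against 25.3%, while 51 (9.68%) lay above, against 11.7%. With tags in peaks as library size these became 49 below (9.3%, against 7.96% of all) and 152 above (28.8%, against 28%), so the count without overlap followed the scaling in the family as in the genome. By the fitted difference 62.8% of the family were lower under the main scaling, 33.4% when scaled to tags in peaks and 52.6% with TMM.

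Regions with several linkers stayed within 1.5-fold, as did most tested regions. The 76 tested regions with at least 3 linkers had a median log2 ratio of -0.05, and none of them passed 1.5-fold in either direction. Of all tested regions 1.8% were lower and 1.3% higher by that much, so none of 76 is near that share. The median levels of these 76 were 4.03 and 4.34 CPM in WT and 4.26 and 4.34 CPM in βRapKO. The 368 tested regions without a linker and with few repeated words had a median of -0.09, with 9 lower and 4 higher by more than 1.5-fold. The median levels of the 368 were lower, at 2.19 and 2.33 CPM in WT and 2.05 and 2.23 CPM in βRapKO. Regions touching a last exon had a median log2 ratio of -0.10 over 145, and those in introns alone -0.05 over 202.

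**Figure D3:**
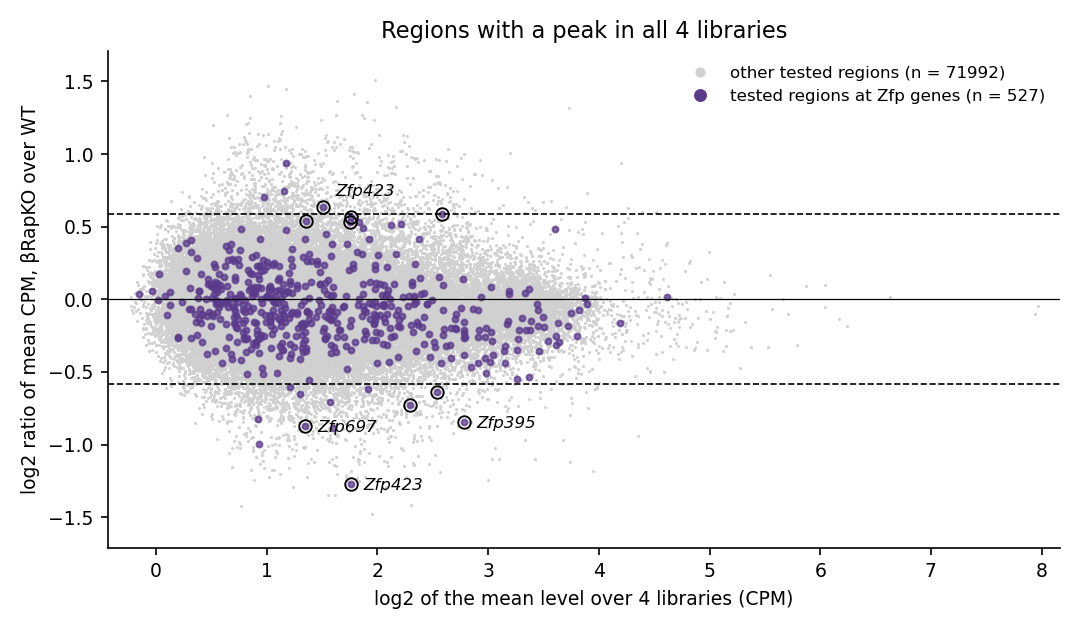
Log2 ratio of mean CPM, βRapKO over WT (y axis), against the log2 of the mean level over 4 libraries in CPM (x axis) for the other tested regions (grey) and 527 tested regions at Zfp genes (purple). Dashed lines mark 1.5-fold and circles the regions with the 5 lowest and 5 highest fitted fold-changes among those with at least 50 tags in every library. The Zfp regions fill the same band as the others, and the lowest circled point is the intron 5 region of Zfp423.

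The largest single difference was in Zfp423, a transcription factor of neural and adipocyte precursors. Its region in intron 5 (chr8:87754772-87757232, minus strand, 2461 bp) gave 4.89 and 4.69 CPM in WT and 2.16 and 1.82 CPM in βRapKO. All 4 values were well apart by genotype, with means of 4.79 ± 0.137 and 1.99 ± 0.240 CPM (SD, n = 2 each), a log2 fold-change of -1.27 ± 0.18 (SE), an unadjusted edgeR p of 0.000151 and an adjusted p of 0.380. The peak itself was narrower in βRapKO, 1093 and 832 bp against 2174 and 2052 bp in WT. Per kb of peak the level was 2.25 and 2.29 CPM in WT and 1.97 and 2.18 CPM in βRapKO, a log2 difference of -0.13. Only tags inside called peaks were counted, so width and level are not independent. Their separate parts in the difference were not tested.

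Neighbouring regions of Zfp423 did not share that size of difference. The gene had 38 regions, 15 of them tested. Of the 15, 12 were below and 3 above WT, while 60.8% of all tested regions were below. The next tested regions on either side, also in intron 5, gave log2 fold-changes of -0.20 and -0.16. A region in intron 3 (chr8:87815110-87816689) gave 2.66 and 1.79 CPM in WT and 3.76 and 3.15 CPM in βRapKO, among the 5 highest fold-changes of the family at 0.65 ± 0.24, with an adjusted edgeR p of 0.851. The strongest region of the gene, over exon 4, stood at 13.9 and 14.1 CPM in WT and 11.02 and 13.6 CPM in βRapKO.

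**Figure D4:**
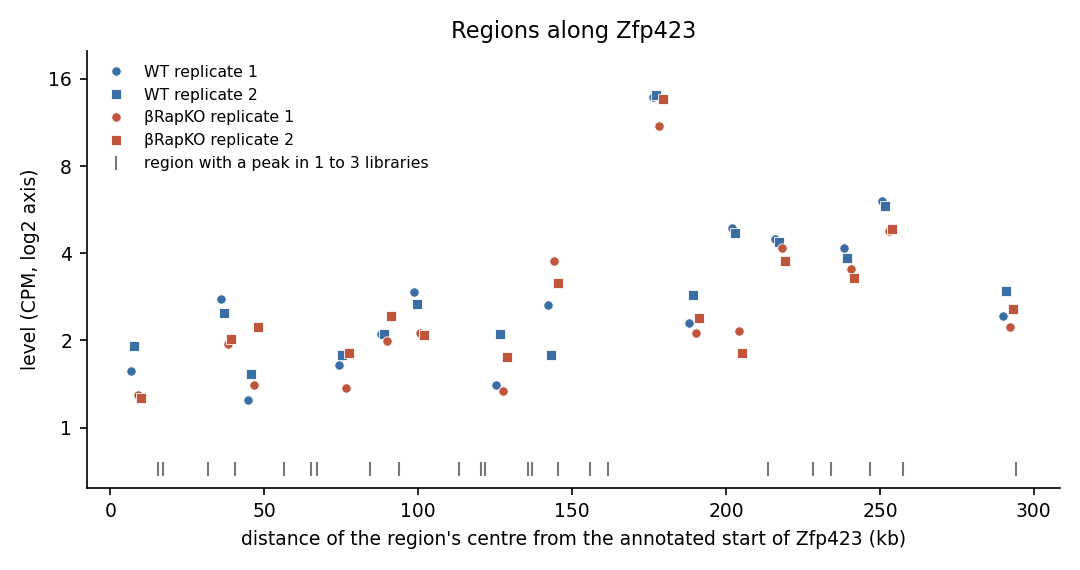
Level in CPM (log2 axis) of the 15 tested regions of Zfp423 in each library, against the distance of the region's centre from the annotated start of the gene in kb, with WT in blue and βRapKO in red. Ticks at the bottom mark the 23 regions with a peak in 1 to 3 libraries. The genotypes stood apart most at 204 kb, where the means were 4.79 CPM in WT and 1.99 CPM in βRapKO, and the highest levels lay at 178 kb over exon 4.

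Of the other regions with the lowest fold-changes, some differed in peak width and some in height. Zfp395 over exons 5 to 7 of 10 (chr14:65390493-65393720) gave 8.29 and 9.42 CPM in WT and 4.79 and 5.07 CPM in βRapKO, a log2 fold-change of -0.84 ± 0.14 with an adjusted edgeR p of 0.380. Its peaks were 3137 and 3155 bp wide in WT and 1165 and 1283 bp in βRapKO, and per kb of peak the direction turned, to 0.52 higher in βRapKO. Where widths differ, here and below, values per kb set unlike stretches side by side and do not compare the same bases. Zfp697 in intron 1 (chr3:98411029-98412099) gave 3.17 and 3.42 CPM in WT and 1.85 and 1.75 CPM in βRapKO, a log2 fold-change of -0.87 ± 0.19 with an adjusted edgeR p of 0.463. Here the widths were alike, 936 and 1053 bp against 958 and 950 bp, so the difference was one of height, at 3.38 and 3.24 against 1.93 and 1.84 CPM per kb, and 47.6% of its 50-base words occur elsewhere in the genome.

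A region in intron 3 of Zfp407, a gene on chromosome 18, gave 6.14 and 6.10 CPM in WT and 3.83 and 3.56 CPM in βRapKO, with peaks of 2752 and 2928 bp against 1627 and 1629 bp. Per kb of peak it turned to 0.08 higher in βRapKO. A region in intron 2 of Zfp398 (chr6:47847871-47851760) gave 8.01 and 6.10 CPM in WT and 5.89 and 3.19 CPM in βRapKO and lay in repeats, with 90.9% of its 50-base words elsewhere in the genome. Its spread between βRapKO libraries was as large as the difference from WT.

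Among the regions with the highest fold-changes, several also differed in width. The region over exons 4 and 5 of Zfp39, the array printed above, gave 3.99 and 5.59 CPM in WT and 5.30 and 9.05 CPM in βRapKO, so the genotypes overlapped, and its peaks spanned 1484 and 1603 bp in WT and 2006 and 3837 bp in βRapKO. Per kb of peak it turned to -0.33. The last exon of Zfp516, a regulator of brown fat genes, gave 3.09 and 2.43 CPM in WT and 4.004 and 3.98 CPM in βRapKO. Its peaks spanned 814 and 842 bp in WT and 2118 and 1942 bp in βRapKO, and per kb of peak it turned to -0.75. Zfp704 in intron 1 (chr3:9580182-9581562) gave 2.23 and 1.95 CPM in WT and 2.98 and 3.08 CPM in βRapKO without overlap and was also higher per kb, at 1.96 and 1.55 against 2.16 and 2.30 CPM per kb, with an adjusted edgeR p of 0.851. Zfp532 in intron 3 gave 2.15 and 3.32 CPM in WT and 4.62 and 3.50 CPM in βRapKO.

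Peaks found in 1 genotype alone were uncommon. Regions called in WT replicates 1 and 2 but in no βRapKO library numbered 41 (3.63%), against 4.19% of all regions, and the reverse at 7 (0.621%), against 1.59%. The WT-only regions with the highest levels were in exon 5 of Zfp536, at 3.32 and 3.29 CPM, in the last exon of Zfp488, at 1.88 and 3.06 CPM, and in exon 8 of Zfp64, at 2.74 and 1.82 CPM. The βRapKO-only regions with the highest levels were in intron 1 of Zfp462, at 3.18 and 3.60 CPM, in exon 11 of the same gene, at 1.98 and 2.16 CPM, and in intron 1 of Zfp536, at 1.44 and 1.58 CPM. A missing peak is not a level of 0. With an equal number of top-ranked peaks taken from each library the counts became 17 and 14 of 1042 regions (1.63% and 1.34%), against 2.71% and 2.91% of all 165910, so the split moved with the number of peaks taken per library.

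Among 8 genes that silence imprints and retroelements, 7 had a region and the region with the most tags was called in all 4 libraries at 4. Zfp568, which represses a placental transcript of Igf2, had its region over the last exon, exon 10 (chr7:30022350-30023724). It gave 2.89 and 3.29 CPM in WT and 1.99 and 2.23 CPM in βRapKO without overlap, a log2 fold-change of -0.56 ± 0.19, an unadjusted edgeR p of 0.0214 and an adjusted p of 0.851. Its peaks were of like width, between 1312 and 1375 bp. Zfp42, also known as REX1 and a marker of pluripotent cells, gave 6.92 and 6.06 CPM in WT and 6.81 and 7.51 CPM in βRapKO over its last exon. Zfp445, which maintains imprints together with Zfp57, and Zfp708 stood between 1.03 and 1.68 CPM in every library and overlapped.

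The other genes of this list had weaker calls. Zfp57, which keeps methylation at imprinted control regions, had its region over the last exon, exon 3, in βRapKO replicate 2 alone with 34 tags. Zfp809, which silences leukaemia retroviruses, had 33, 30 and 42 tags in 3 libraries and no peak in WT replicate 1. Zfp819 had 33, 30 and 56 tags in 3 libraries and no peak in WT replicate 2. Zfp932 had no region. None of the 6 tested regions of the list passed 1.5-fold, against 1.8% lower and 1.3% higher of all tested regions.

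Of 16 transcription factors of development and growth, 15 had a region, 166 regions in all or 10.4 per gene, and the region with the most tags was called in all 4 libraries at 13. Zfp462, a factor of neural development, gave 18.0 and 20.6 CPM in WT and 17.7 and 16.8 CPM in βRapKO over exons 2 to 4 of 13 (chr4:55007187-55015015, 7829 bp), the highest mean level of the tested regions outside repeats. Zfp467, a regulator of bone and fat cell fate, gave 10.4 and 12.4 CPM in WT and 7.36 and 8.23 CPM in βRapKO over its last exon (chr6:48437231-48439705). The genotypes of Zfp467 did not overlap, with a log2 fold-change of -0.55 ± 0.14, an unadjusted edgeR p of 0.0042 and an adjusted p of 0.585, and per kb of peak the values were 5.29 and 6.78 in WT and 4.10 and 3.60 in βRapKO.

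Of the 13 top regions of this list called in all 4 libraries, 9 lay below WT without overlap and none above, against 25.3% and 11.7% of all tested regions. The count fell to 4 with tags in peaks as library size (7.96% of all tested regions below) and to 5 with TMM (18% below), and none passed the FDR. Each top region was taken for having the most tags at its gene. The shares of all tested regions, whose median level was 2.33 CPM, are not matched for level. The list was chosen with earlier results of these data known. Zfp536, a repressor in neurons, gave 9.77 and 10.7 CPM in WT and 6.43 and 8.64 CPM in βRapKO over exon 4. Zfp703, a corepressor amplified in some breast cancers, gave 9.22 and 10.5 CPM in WT and 7.49 and 8.29 CPM in βRapKO over exon 2, its last. Zfp335, needed in neural progenitors, gave 4.61 and 4.79 CPM in WT and 3.52 and 4.04 CPM in βRapKO over exons 8 to 10.

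Others differed by less. Zfp143, which binds promoters and chromatin loop anchors, gave 2.46 and 2.39 CPM in WT and 1.99 and 1.95 CPM in βRapKO. Zfp217 gave 3.32 and 3.73 CPM in WT and 3.11 and 2.78 CPM in βRapKO, and Zfp384 gave 2.19 and 2.33 CPM in WT and 1.95 and 2.16 CPM in βRapKO. Neither gene's libraries overlapped between genotypes. Zfp219, Zfp521, Zfp148 and the exon 2 region of Zfp516 overlapped between genotypes. Zfp503 and Zfp263 had a peak in 1 library each, with 43 and 27 tags, and Zfp281 had no region. Over the 65 tested regions of the list the median log2 ratio was -0.12, against -0.06 over all tested regions. Of the 65, 46 were below WT, against 60.8% of all tested regions. By more than 1.5-fold 2 were lower and 2 higher, against 1.8% and 1.3% of all.

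**Figure D5:**
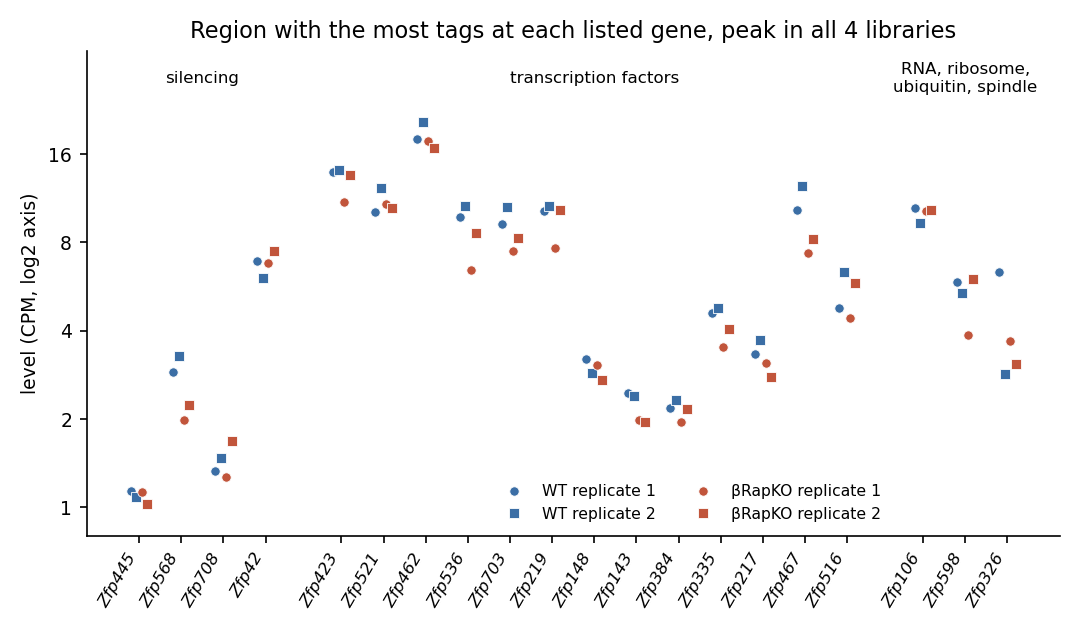
Level in CPM (log2 axis) of the region with the most tags at each listed gene, in the 4 libraries, for the 20 genes where that region had a peak in all of them. WT is blue and βRapKO red. Levels ran from near 1 CPM at Zfp445 to 20.6 CPM at Zfp462, and βRapKO lay below WT without overlap at 10 of the 20, against 25.3% of all tested regions, and at 5 with tags in peaks as library size, against 7.96%. The shares of all tested regions are not matched for level.

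Of 8 genes of the family that act on RNA, ribosomes, ubiquitin or the spindle, 7 had a region, and the region with the most tags was called in all 4 libraries at 3. Zfp106, an RNA-binding protein of motor neurons, gave 10.5 and 9.35 CPM in WT and 10.2 and 10.3 CPM in βRapKO in intron 2, in a region of which 72.1% of the 50-base words occur elsewhere. Zfp598, a ubiquitin ligase of collided ribosomes, gave 5.86 and 5.39 CPM in WT and 3.87 and 6.00 CPM in βRapKO over exons 2 to 7. Zfp326, a splicing factor, gave 6.33 and 2.84 CPM in WT and 3.70 and 3.08 CPM in βRapKO upstream of its start, where WT replicate 1 stood apart with a peak of 3149 bp against 1139 to 1510 bp in the others.

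The remaining genes of this list had few tags. Zfp36, or tristetraprolin, which destabilises mRNA, had 27 and 38 tags in 1 library of each genotype. Zfp207, a spindle protein, had 24 tags in WT replicate 2 alone, and Zfp346 and Zfp622, a factor of ribosome assembly, had peaks in 3 libraries each with 24 to 65 tags. Zfp91, a ubiquitin ligase, had no region. Over the 7 tested regions of the list the median log2 ratio was 0.02, with 3 below and 4 above WT. Among all tested regions 60.8% were below.

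Of the 5 highest levels of the tested regions, 4 lay in repeats. Upstream of Zfp236 on chromosome 18, a region of 5269 bp gave 26.7 and 21.9 CPM in WT and 24.3 and 24.9 CPM in βRapKO, and 96.2% of its 50-base words occur elsewhere. Regions at Zfp986 and Zfp933 in the chromosome 4 cluster and in intron 3 of Zfp69 gave between 13.4 and 15.2 CPM in every library, with 74.0% to 86.6% of words repeated. The log2 fold-changes of these 4 regions lay between -0.07 and 0.02. Over the 62 tested regions with at least 50% repeated words the median log2 ratio was 0.01, with 3 lower and none higher by more than 1.5-fold. Of all tested regions 1.8% were lower and 1.3% higher by that much. The widest region, 8048 bp over the last exon of Zfp407, gave 11.6 and 19.1 CPM in WT and 15.1 CPM in βRapKO replicate 2, with no peak in βRapKO replicate 1.

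By cluster, most medians stayed close to that of the genome. The tested regions of all clustered genes had a median log2 ratio of -0.05 over 189 and those outside clusters -0.10 over 338. A cluster of 6 genes on chromosome 7 from 4.9 to 5.1 Mb had 7 of 7 tested regions below WT with a median of -0.21, and a cluster of 5 genes on chromosome 9 from 22.1 to 22.3 Mb, which holds Zfp809, had 5 of 5 above WT with a median of 0.27. Among all tested regions 60.8% lay below WT. Both clusters were picked out for these values, and no region in either passed the FDR. The first summed to 45.8 and 51.8 CPM in WT and 36.9 and 44.3 CPM in βRapKO, and the second to 20.9 and 24.8 CPM in WT and 26.2 and 27.4 CPM in βRapKO. The first did not have the lowest median. A cluster of 10 genes on chromosome 7 from 127.2 to 127.9 Mb stood at -0.25, with 7 of 9 tested regions below WT. One of 9 genes on chromosome 6 from 47.8 to 48.6 Mb stood at -0.21, with 12 of 15 below. Above 0, one of 11 genes on chromosome 17 from 32.8 to 33.6 Mb stood at 0.14, with 3 of 9 below.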

How the data were processed

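Islet DNA enriched for methylated cytosine was sequenced in 2 libraries per genotype, WT and βRapKO, assigned from the labels. The authors aligned reads to mm10 with Bowtie2 (version 2.2.5) and called peaks in each library with MACS, version 1.4.2 per the file headers (0.14.2 in the submitters' notes), with no input or other control, a cutoff of 1e-05 on p and 1 tag per position. Each deposited peak carries an unscaled count of tags, a score that is the −log10 of p times 10, and a fold enrichment (a ratio to local background). The counts were used for levels and tests, and the −log10 p for stricter peaks.

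Peaks were merged and their tags summed per library and region. CPM used the tags left after duplicate removal, without further scaling, and precision was taken from the spread between libraries, since it exceeded counting error (chi-square per region 2.25 and 2.41 in Zfp regions). Regions with a peak in all 4 libraries entered edgeR 4.0.16 (R 4.3.3), with a quasi-likelihood test, Benjamini-Hochberg adjustment over 72519 regions, and calls needed a fold-change above 1.5 and an FDR under 0.05. On simulated data with 200 regions changed 2-fold, 92 were found and 1 unchanged region was called. Single values were compared by a two-sided exact permutation test over libraries.

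Genes and 1 principal transcript each came from GENCODE M21, and sequence from the RefSeq assembly GRCm38.p6. Repeated words were 50-base words taken every 50 bases. Alternatives were tags in peaks as library size, TMM, DESeq2 1.42.0, tags per kb of peak, stricter peaks (a score of at least 100), a 50% overlap, at least 50 tags, X and Y in the fit, symbols with trailing letters, gene bodies alone, equal numbers of peaks, the replicate block and leaving out each library. Scripts ran in Python 3.11.15 with SciPy 1.17.1. Zfp genes, lists, tests and alternatives were chosen with earlier results of these data known. Named were the region with the most tags of each gene of 3 lists, the 5 highest levels, the 5 lowest and 5 highest fold-changes with at least 50 tags, the 3 strongest regions called in 1 genotype, the 3 widest, the 3 genes with most regions, the regions at the 2 kb limit and the 3 largest clusters. Tags outside peaks were not used here.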

Additional observations from a re-analysis of the deposited data

How the results depend on the processing

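No alternative brought a Zfp region past the FDR, with a smallest adjusted p in the main test of 0.380. The count of regions lower and higher by more than 1.5-fold, 12 and 4, became 6 and 18 with tags in peaks as library size, 23 and 1 per kb of peak, 4 and 2 of 270 with stricter peaks, and 7 and 1 of 329 with at least 50 tags. Higher regions numbered 9 with TMM and 9 with DESeq2. Leaving out 1 library gave 15 to 37 lower, the most without βRapKO replicate 2, and 8 to 17 higher, the most without either WT library. The median log2 fold-change of -0.08 turned to 0.0855 (0.10 over all regions) with tags in peaks and was -0.16 per kb of peak, and ran from -0.14 to -0.03 with a library left out. The summed level stayed below WT in all alternatives, from -0.25 with stricter peaks to -0.02 with tags in peaks, and from -0.26 to -0.10 with a library left out. WT-only and βRapKO-only regions, 41 and 7, became 17 and 14 with equal numbers of peaks, and 95 to 170 and 23 to 58 with a library left out, where 1 library alone then stands for a genotype. The share over a last exon, 17.9%, was 23.5% with stricter peaks and 15.2% where at least 50% of the region had to lie in that exon, and 18.0% to 19.8% with a library left out.

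Replicate numbers are shared between the genotypes. Deviations of same-numbered libraries correlated at 0.093 in the Zfp regions and at 0.046 over all tested regions. A shift common to all regions of a library does not enter this correlation, so a shared preparation was not tested. With the replicate block 11 regions were lower and 4 higher, with a median of -0.08.

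Tested regions below and above WT without overlap, 140 and 51, became 49 and 152 with tags in peaks as library size and 98 and 86 with TMM. The 20 listed top regions went from 10 and 0 to 5 and 3 and to 6 and 2. These counts under other scalings were added after the data were seen.

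Named log2 fold-changes reversed in 35 of 428 values. With tags in peaks as library size these were Zfp445 at 0.133, Zfp521 at 0.0964, Zfp462 at 0.00496, Zfp148 at 0.0884, Zfp384 at 0.0278, Zfp516 (exon 2) at 0.0444, Zfp986 at 0.133 and Zfp69 at 0.0905. With TMM and DESeq2 they were Zfp445 at 0.0247 and 0.0243 and Zfp986 at 0.0337 and 0.0328. Per kb of peak they were Zfp42 at -0.103, Zfp148 at 0.0102, Zfp217 at 0.0854, Zfp326 at 0.152, Zfp236 at -0.279, Zfp395 at 0.515, Zfp407 at 0.0785, Zfp39 at -0.327, Zfp532 at -0.0308 and Zfp516 (last exon) at -0.747. With a library left out, ranges that crossed 0 were -0.106 to 0.0287 for Zfp445, -0.149 to 0.257 for Zfp708, -0.199 to 0.0678 for Zfp521, -0.163 to 0.00655 for Zfp148, -0.338 to 0.103 for Zfp516 (exon 2), -0.0356 to 0.133 for Zfp106, -0.539 to 0.0933 for Zfp598, -0.900 to 0.255 for Zfp326, -0.121 to 0.167 for Zfp236 and -0.0310 to 0.0555 for Zfp933. Depth limits what a missing peak can say, and only 2-fold differences were simulated. Apart from the construction of each alternative the cause of these shifts was not tested.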

Other observations

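On the X chromosome, which the autosomal regions leave out, 2 of 7 Zfp genes had a region, each with a peak in all 4 libraries. Zfp275 gave 3.13 and 4.63 CPM in WT and 2.43 and 3.50 CPM in βRapKO, and Zfp92 gave 3.60 and 3.96 CPM in WT and 2.16 and 2.71 CPM in βRapKO. The libraries of Zfp92 did not overlap and those of Zfp275 did.

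Genes whose symbol carries letters after the number, 27 on chromosomes 1 to 19, added 120 regions, of which 47 could be tested. Their median log2 ratio was -0.03, with 1 lower and 0 higher by more than 1.5-fold, against 1.8% and 1.3% of all tested regions.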
